A study of Mus musculus with 6 samples.

Results

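The gas-exchange surface of the lung is lined by a capillary net built from a pair of endothelial cell types, and 10 marker genes of these cells were followed through warm ischemia and reperfusion. They were chosen by name from the 23194 genes of the deposited table. The aerocyte markers were Car4, Apln, Tbx2, Fibin and Prx, and the general capillary markers were Gpihbp1, Plvap, Aplnr, Kit and Ptprb. RNA was taken from the whole left lung of 6 adult mice of the inbred strain C57BL/6, all of them wild type. In 3 injured lungs the left pulmonary artery had been tied for 4 h and released for 24 h of reperfusion, and 3 naive lungs came from control mice. The treatment notes allow a ligation of 4 h or longer, and the sample titles and design give 4 h. The labels describe no operation on the naive mice, so surgery and ischemia cannot be told apart. They number the lungs of each group as replicates but tie none to a named mouse or day, so p-values rest on the spread between these lungs. Library names begin with XW in injured and with N in naive lungs. What these series stand for is not given, and it cannot be told apart from injury.

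Aerocytes are large, thin capillary cells that face the alveolar gas and are specialised for gas exchange. General capillary cells regulate vessel tone and act as progenitors that can renew themselves and give rise to aerocytes. The types signal to each other: aerocytes secrete apelin (Apln) and Kit ligand (Kitl), and general capillary cells carry the receptors Aplnr and Kit. Whole-lung RNA does not show which cells a transcript came from, and fewer cells of a type and less RNA per cell cannot be told apart in it.

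The libraries held 20062818 to 23638078 gene counts in injured and 18913487 to 34986276 in naive lungs. All 10 members passed the filter on low counts, and the lowest count of any member in any library was 536. Of the 15486 genes tested with edgeR, 334 were called higher and 148 lower in injured lungs at an adjusted p under 0.05, which is 3.11% of genes in either direction. Neutrophil genes stood at a summed 1475 to 1951 CPM (counts as a share of the library, scaled by TMM) in injured and 172.8 to 241.8 CPM in naive lungs, with 9 of 10 listed genes called higher. Heart muscle genes summed to 145.8 to 748 CPM in injured and 525 to 973 CPM in naive lungs, and edgeR called 0 of 9 tested, with 1 at an unadjusted p under 0.05. All 9 had log2 fold changes, injured over naive, below 0, with a median of -0.72. The part of either in the results below was not tested.

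RefSeq promoter windows of build GRCm38.p6, 250 bases before to 50 after the start site, were matched by symbol for 5 of the 10 members: Car4, Apln, Fibin, Prx and Kit. Windows for Tbx2, Gpihbp1, Plvap, Aplnr and Ptprb were not used here. Apln is shown because its transcript had the lowest injured-to-naive ratio of the members, and Car4 and Kit because they stand for an aerocyte and a general capillary gene whose groups overlapped. Capitals mark 3 short motifs on either strand. ACGTG, which on the opposite strand reads CACGT, is a form of the core bound by hypoxia-inducible factors. Other forms of the sites of these factor families were not searched or marked. CACCC, which there reads GGGTG, is bound by Krüppel-like factors, and AGGAAG, which there reads CTTCCT, by ETS factors. Apln lies at chrX:48034804-48035103 on the minus strand, Car4 at chr11:84957504-84957803 on the plus strand and Kit at chr5:75574737-75575036 on the plus strand.
Apln: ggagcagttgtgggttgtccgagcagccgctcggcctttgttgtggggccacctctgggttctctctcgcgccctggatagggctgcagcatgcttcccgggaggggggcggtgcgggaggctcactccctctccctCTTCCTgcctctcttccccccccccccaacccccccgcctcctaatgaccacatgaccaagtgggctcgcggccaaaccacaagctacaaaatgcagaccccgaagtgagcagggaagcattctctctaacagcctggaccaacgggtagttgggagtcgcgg
Car4: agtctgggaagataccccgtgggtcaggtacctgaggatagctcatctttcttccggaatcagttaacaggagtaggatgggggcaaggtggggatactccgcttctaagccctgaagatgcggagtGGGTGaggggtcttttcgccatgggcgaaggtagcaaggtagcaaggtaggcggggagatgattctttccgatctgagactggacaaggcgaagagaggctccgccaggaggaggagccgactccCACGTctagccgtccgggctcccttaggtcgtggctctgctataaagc
Kit: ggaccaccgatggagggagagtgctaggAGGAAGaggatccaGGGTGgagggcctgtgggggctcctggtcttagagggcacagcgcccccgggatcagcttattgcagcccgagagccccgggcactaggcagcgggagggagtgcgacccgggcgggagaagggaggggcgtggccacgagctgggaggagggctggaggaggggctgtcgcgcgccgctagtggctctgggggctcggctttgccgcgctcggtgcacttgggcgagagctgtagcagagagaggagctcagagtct
The Apln window held AGGAAG once and neither of the other motifs searched. The Car4 window held ACGTG and CACCC once each, and the Kit window CACCC and AGGAAG once each, counted on either strand. Of 32544 distinct RefSeq windows of this length, ACGTG was held by 19.7%, CACCC by 57.7% and AGGAAG by 35.1%, on either strand. A match of letters is a description of the window and shows no binding.

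Per length of transcript, the members covered a wide range of levels, and the apelin genes stood at its low end. Plvap encodes the protein that forms the diaphragms of caveolae and fenestrae. Its level in the authors' FPKM (fragments scaled to transcript length and library depth) was 332.5 ± 78.7 in injured and 344 ± 38.3 in naive lungs (SD, n = 3 each), above that of every other member in all 6 lungs. Ptprb, Car4 and Tbx2 followed, at mean FPKM levels of 133, 120 and 97.6 in injured and of 135, 131 and 115.7 in naive lungs, and each overlapped the next in both groups. Gpihbp1 and Prx had mean FPKM levels of 76.4 and 60.6 in injured lungs, where they did not overlap, and of 71.5 and 67.7 in naive lungs, where they did. Fibin and Kit overlapped in both groups, with mean FPKM levels of 47.9 and 41.8 in injured and 45.5 and 49.5 in naive lungs. Aplnr and Apln had the lowest levels, with mean FPKM of 13.1 and 10.9 in injured lungs and of 29.7 and 24.9 in naive lungs, and overlapped each other in both groups.

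**Figure D1:**
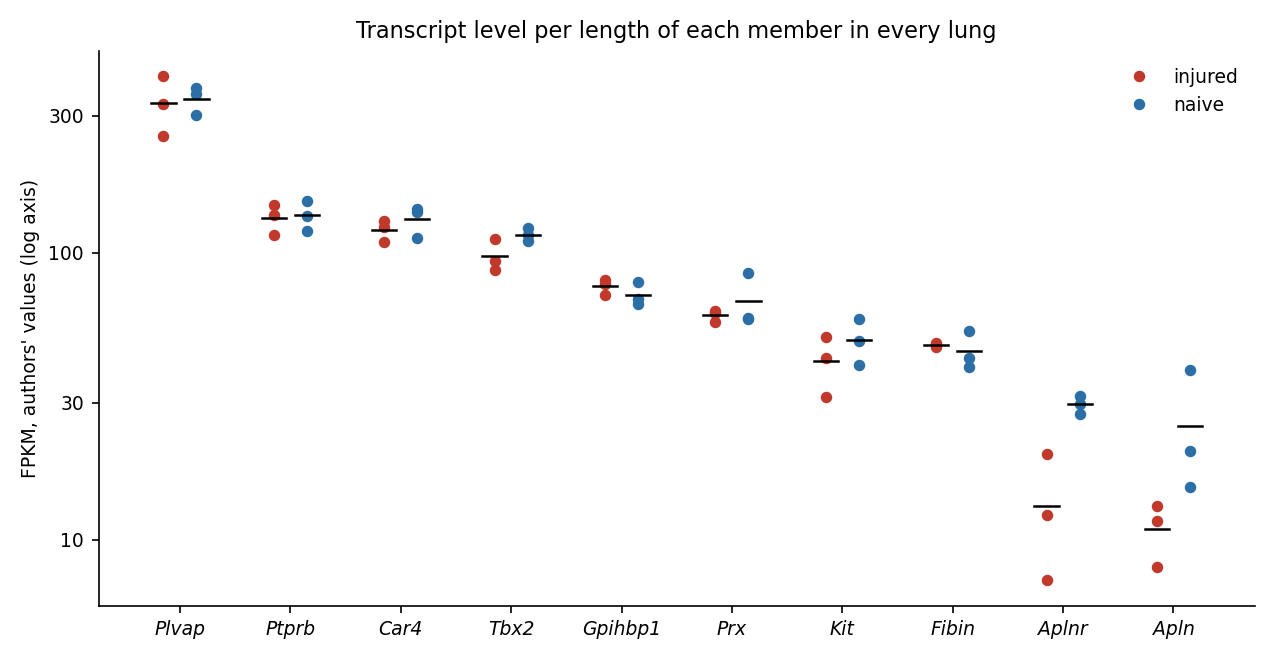
FPKM of the 10 members in every lung, from the authors' table, on a log axis; red points are the 3 injured and blue points the 3 naive lungs, and black bars are means. Plvap lies above all other members, at 332.5 FPKM in injured and 344 FPKM in naive lungs on average, while Aplnr and Apln lie lowest and their injured lungs fall below their naive lungs.

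None of the 10 members was called at an adjusted p under 0.05 by edgeR, DESeq2 or limma-voom, where edgeR called 3.11% of all genes, 2.16% higher and 0.956% lower. At an unadjusted edgeR p under 0.05 there were 3 members, Apln, Aplnr and Tbx2, all lower in injured lungs, against 16.7% of all genes in either direction and 7.66% lower. The injured lungs lay below the naive lungs without overlap for 2 members, Apln and Aplnr, where this held for 10.6% of all genes, and 22.9% had no overlap in either direction. Both also had a log2 fold change of -1 or below, as did 1.45% of all genes. Taken as injured over naive, the log2 fold change was below 0 for 8 of the 10 members, with a median of -0.16 beside -0.00096 over all genes tested. The median was -0.18 for the 5 aerocyte and -0.07 for the 5 general capillary members, a difference that was not tested.

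The apelin ligand and its receptor showed the largest differences of the 10 genes. Apln (ENSMUSG00000037010, mm10 chromosome X, 48025146 to 48034853) encodes the secreted peptide apelin, which is induced by hypoxia and in sprouting endothelium. It had 36.5, 25.3 and 41.0 CPM in injured replicates 1, 2 and 3, against 47.9, 64.2 and 125.5 CPM in naive replicates 1, 2 and 3. Every injured lung lay below every naive lung, and naive replicate 3 stood far above the other 5. The injured level was 0.432 of the naive level (95% confidence interval 0.206 to 0.908, log2 fold change -1.21 ± 0.42 SE, edgeR adjusted p = 0.247). Without naive replicate 3 the log2 fold change was -0.71 at an adjusted p of 0.191.

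Aplnr (ENSMUSG00000044338, chromosome 2, 85136225 to 85139923) encodes the G protein-coupled receptor of apelin. It had 26.6, 44.8 and 73.6 CPM in injured replicates 1, 2 and 3, and 100.9, 117.6 and 113 CPM in naive replicates 1, 2 and 3. The injured lungs were spread widely and the naive lungs lay close together, and the groups did not overlap. The injured level was 0.438 of the naive level (95% confidence interval 0.230 to 0.835, log2 fold change -1.19 ± 0.37 SE, edgeR adjusted p = 0.200). Without injured replicate 3 the receptor was called lower, with a log2 fold change of -1.63 and an adjusted p of 0.0135, the only call of any member in the 15 alternative fits. Without injured replicate 1 the log2 fold change was -0.90. Over the alternatives the adjusted p ran from 0.0135 to 0.414 for Aplnr and from 0.121 to 0.439 for Apln. With all libraries, the adjusted p of Aplnr was 0.0603 by DESeq2 and 0.0612 by limma-voom. That of Apln was 0.122 by DESeq2 and 0.150 by limma-voom.

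An exact two-sided permutation test gave p = 0.1 for Apln and for Aplnr, the smallest that 3 against 3 lungs allow. In the authors' deposited table the log2 fold change was -0.56 for Apln (adjusted p = 0.126) and -0.63 for Aplnr (adjusted p = 0.0625), and how their fold changes were derived is not given in the sources used here. The spread between lungs and not the depth set the precision: the lowest library count was 570 for Apln and 536 for Aplnr, a counting error of 4.19% and 4.32%. The pooled SD of log2 CPM within groups was 0.56 for Apln and 0.52 for Aplnr, larger than that of 98.5% and 98.2% of the genes that averaged at least 10 CPM. The libraries were also scaled to 20 genes listed as pan-endothelial, meaning broadly endothelial, of which Sox17 is also on the arterial list. The log2 fold changes were then -1.17 for Apln (edgeR adjusted p = 0.301) and -1.14 for Aplnr (edgeR adjusted p = 0.310).

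**Figure D2:**
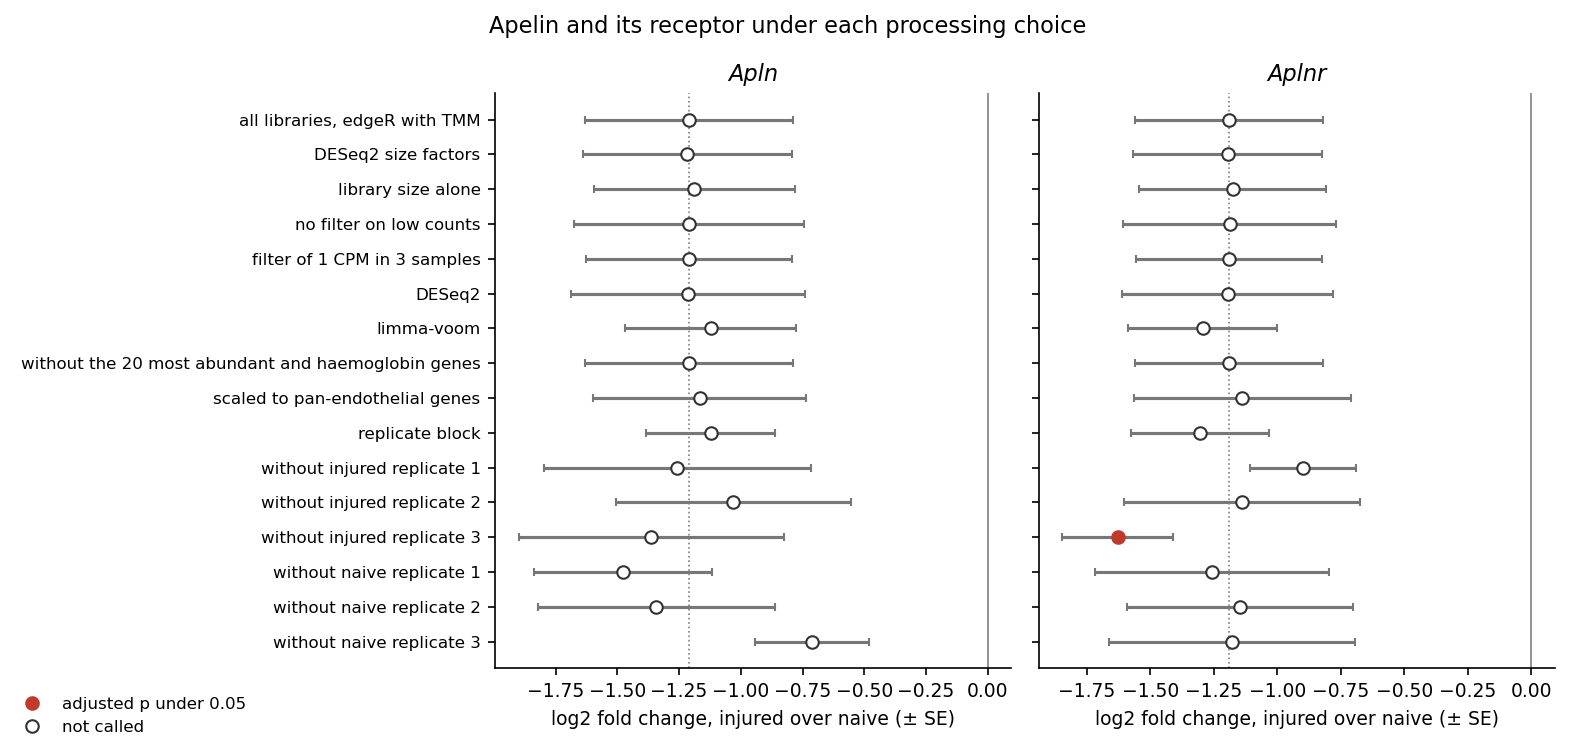
Log2 fold change of Apln and Aplnr, injured over naive lungs, with all libraries and under each of 15 alternatives; bars are ± SE, a filled point marks an adjusted p under 0.05 and the dotted line the value with all libraries. All values are below 0; Aplnr without injured replicate 3 is the only filled point, and Apln lies nearest to 0 without naive replicate 3, at -0.71.

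Counts of called genes in the lists below are those of edgeR with all libraries, and genes named because another fit called them were picked after their values were seen. Of 11 tested genes of the apelin pathway, Apln and Aplnr included, 0 were called higher and 0 lower, with 5 at an unadjusted p under 0.05 and a median log2 fold change of -0.06. Gnai2, a G protein subunit that couples to the receptor, had a log2 fold change of 0.07 ± 0.09, and the arrestin gene Arrb1 one of 0.11 ± 0.10. DESeq2 called 1 gene higher, the arrestin Arrb2 (log2 fold change 0.50 ± 0.13 and adjusted p = 0.0736 by edgeR), and 1 lower, the flow-responsive transcription factor Klf2 (-0.89 ± 0.24, adjusted p = 0.115 by edgeR). Arrb2 was also called with no filter on low counts, and Klf2 with the replicate block and without naive replicate 1. The identifier that GENCODE M21 names Apela, a second ligand of the receptor, carries another symbol in the table, and no value is given for it.

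None of the other 4 aerocyte genes was called, and each overlapped between the groups. Car4 (ENSMUSG00000000805, chromosome 11, 84957786 to 84966044) encodes a carbonic anhydrase anchored on the luminal face of capillaries, where it interconverts carbon dioxide and bicarbonate. It had 153, 135.6 and 161.5 CPM in injured and 176.9, 174 and 144.6 CPM in naive replicates 1, 2 and 3, and the groups overlapped. The log2 fold change was -0.14 ± 0.11, with a 95% confidence interval of -0.38 to 0.10 (edgeR adjusted p = 0.587). Of the 11 tested carbonic anhydrase genes, edgeR called 0, with 2 at an unadjusted p under 0.05, and Car8, the next of them in CPM, had a log2 fold change of -0.20 ± 0.14.

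Tbx2 (ENSMUSG00000000093, chromosome 11, 85832551 to 85841948), a T-box transcription factor that acts mainly as a repressor, had 404.6, 337 and 315.6 CPM in injured and 415.7, 398 and 453 CPM in naive replicates 1, 2 and 3. The groups overlapped only through injured replicate 1, which lay above naive replicate 2. The log2 fold change was -0.26 ± 0.11, with an interval of -0.51 to -0.01 before adjustment and an edgeR adjusted p of 0.277. All 10 tested T-box genes had log2 fold changes below 0, with a median of -0.28. Of these edgeR called 0, with 5 at an unadjusted p under 0.05, and DESeq2 called 2 lower, Tbx5 and Tbx18. Tbx3, the close relative of Tbx2, had a log2 fold change of -0.27 ± 0.11 (adjusted p = 0.255).

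Prx (ENSMUSG00000053198, chromosome 7, 27499324 to 27520214) encodes periaxin, a scaffold protein of myelinating Schwann cells that is also made in lung capillaries. It had 339, 333 and 310.6 CPM in injured and 319, 319 and 474 CPM in naive replicates 1, 2 and 3. Naive replicate 3 stood above the other 5 lungs, which lay close together. The log2 fold change was -0.18 ± 0.15 with all lungs (edgeR adjusted p = 0.629) and 0.03 without naive replicate 3. Fibin (ENSMUSG00000074971, chromosome 2, 110360917 to 110363183), named after a secreted factor of fin bud initiation in zebrafish, had 106, 109.7 and 108.2 CPM in injured and 120.1, 90.8 and 99.8 CPM in naive replicates 1, 2 and 3. The injured lungs all lay within the range of the naive lungs, with a log2 fold change of 0.06 ± 0.11 (interval -0.18 to 0.30, edgeR adjusted p = 0.846), which was -0.03 without naive replicate 2.

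**Figure D3:**
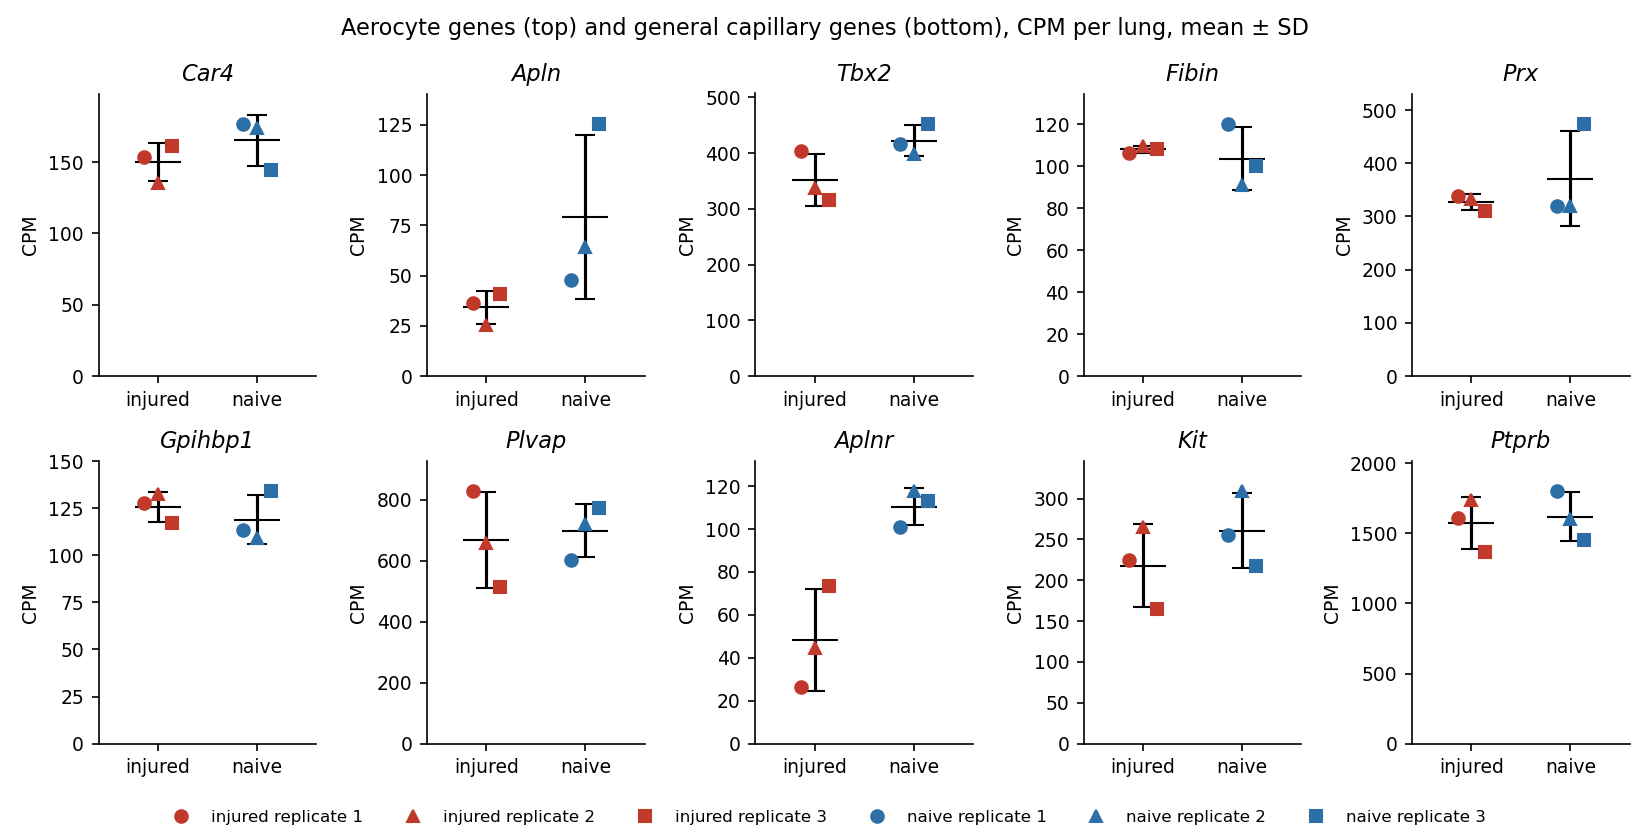
CPM of each member in every lung, injured left and naive right, with the mean and SD of 3 lungs. The symbol gives the replicate number, and the labels state no pairing of lungs. Apln and Aplnr are the members whose injured lungs all lie below the naive lungs, and naive replicate 3 stands apart for Apln at 125.5 CPM and for Prx at 474 CPM.

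The general capillary genes other than Aplnr also overlapped between the groups. Gpihbp1 (ENSMUSG00000022579, chromosome 15, 75596628 to 75599481) encodes the protein that carries lipoprotein lipase to the capillary lumen and holds it there. It had 127.6, 132 and 116.9 CPM in injured and 113.5, 109.3 and 134 CPM in naive replicates 1, 2 and 3. The log2 fold change was 0.08 ± 0.10, with a 95% confidence interval of -0.15 to 0.31 (edgeR adjusted p = 0.771). The enzyme itself, Lpl, rose to 480 ± 60.8 CPM in injured lungs, against 282 ± 38.5 CPM in naive lungs (log2 fold change 0.77 ± 0.13, edgeR adjusted p = 0.0127). It was higher in all 3 injured lungs, and its call was lost without injured replicate 1 or naive replicate 2 (adjusted p up to 0.0760). Macrophages also make Lpl. Of the 11 tested genes of this lipase pathway 2 were called higher and 0 lower, with a median of 0.14, and the other was Apoc2, the cofactor of the lipase. Apoc2 stood at 4.64 ± 1.75 CPM in injured and 1.13 ± 0.358 CPM in naive lungs (log2 fold change 2.01 ± 0.35, adjusted p = 0.0166) and lost its call without naive replicate 2 (adjusted p = 0.0734).

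Plvap (ENSMUSG00000034845, chromosome 8, 71497754 to 71511769) had 828, 659 and 513 CPM in injured and 603, 721 and 772 CPM in naive replicates 1, 2 and 3. The injured lungs spanned more than the range of the naive lungs, and the log2 fold change was -0.07 ± 0.17, with a 95% confidence interval of -0.46 to 0.32 (edgeR adjusted p = 0.895). It was 0.09 without injured replicate 3 and 0.0041 without naive replicate 3. Of the 8 tested genes of caveolae and their diaphragms, 1 was called higher and 0 lower, with a median of -0.09. The called gene was Cavin3, a caveolar coat protein (log2 fold change 0.43 ± 0.10, adjusted p = 0.0494), whose call was lost without any 1 library (adjusted p up to 0.162), with DESeq2 size factors, by limma-voom and when scaled to pan-endothelial genes. DESeq2 also called 1 lower, the coat protein Cavin2 (log2 fold change -0.42 ± 0.13 and adjusted p = 0.138 by edgeR), as did the replicate block. On the table's coordinates 1830 bases of Plvap overlap Gtpbp3 on the opposite strand, which had 1221 counts over the injured and 1405 over the naive libraries. Prx overlaps the antisense gene Gm15541, with 41 counts over the injured and 44 over the naive libraries. The strand setting of the counting is not given in the sources used here, so reads from such overlaps cannot be assigned.

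Kit (ENSMUSG00000005672, chromosome 5, 75574916 to 75656722), the receptor tyrosine kinase for Kit ligand, had 224, 265 and 164.7 CPM in injured and 255.8, 309 and 217 CPM in naive replicates 1, 2 and 3. The groups overlapped, with injured replicate 3 lowest and naive replicate 2 highest. The log2 fold change was -0.26 ± 0.19, with a 95% confidence interval of -0.70 to 0.19 (edgeR adjusted p = 0.571). Mast cells also carry Kit, and their proteases were scarce: Cpa3 stood at 3.40 ± 0.660 CPM in injured and 2.53 ± 0.880 CPM in naive lungs, and Tpsb2 had 48 counts over the injured and 27 over the naive libraries. Of 10 listed mast cell and basophil genes 5 were tested, and edgeR called 0, with 1 at an unadjusted p under 0.05. All 5 had log2 fold changes above 0, with a median of 0.31. The list summed to 283 to 292 CPM in injured and 199 to 302 CPM in naive lungs. Most of that sum was Gata2 (197 ± 8.17 CPM in injured and 175.8 ± 40.9 CPM in naive lungs) and Hdc (83.2 ± 10.2 CPM in injured and 61.1 ± 11.4 CPM in naive lungs), which other cells also express, and Hdc was called higher without naive replicate 3. Among 7 listed genes of type 2 innate lymphoid cells, some of which carry Kit, 5 were tested and 1 fell by edgeR (2 by DESeq2, with Il7r), Areg, an epidermal growth factor family ligand also made by other cells. Areg stood at 1.54 ± 0.0567 CPM in injured and 5.79 ± 2.34 CPM in naive lungs (log2 fold change -1.92 ± 0.33, adjusted p = 0.0146), with the call lost without injured replicate 1 or 2 (adjusted p up to 0.0669).

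Kitl, the ligand, was at 304 ± 21.6 CPM in injured and 353 ± 16.1 CPM in naive lungs (log2 fold change -0.22 ± 0.09, adjusted p = 0.265). The 3 injured lungs lay below the 3 naive lungs, but the difference was not called. Of 12 tested genes of Kit signalling, 1 was called higher and 0 lower, with a median of -0.05. The called gene was Ptpn6, a phosphatase abundant in leukocytes (log2 fold change 0.50 ± 0.11, adjusted p = 0.0418). It was not called by limma-voom, nor when a library other than injured replicate 3 was left out, with adjusted p values reaching 0.148.

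Ptprb (ENSMUSG00000020154, chromosome 10, 116301374 to 116389538) encodes the vascular endothelial protein tyrosine phosphatase, which acts on the receptor Tie2 and on VE-cadherin and is found in most endothelium. It was the member with the highest CPM, with 1610.1, 1740 and 1368 CPM in injured and 1799, 1603 and 1451 CPM in naive replicates 1, 2 and 3. The groups overlapped, and the log2 fold change was -0.04 ± 0.12, with a 95% confidence interval of -0.32 to 0.24 (edgeR adjusted p = 0.911). It was 0.05 without injured replicate 3 and 0.04 without naive replicate 1. Of 11 tested genes of the phosphatase, the Tie receptors and the junction, edgeR called 0, with 2 at an unadjusted p under 0.05 and a median of -0.10. Angpt2, a Tie2 ligand that can destabilise vessels, lay at the threshold, with a log2 fold change of -0.45 ± 0.10 and an adjusted p of 0.0503. Angpt2 was called lower in 6 of the 15 alternatives: by DESeq2, with DESeq2 size factors, with no filter, with a filter of 1 CPM, without the 20 most abundant and haemoglobin genes, and without naive replicate 3. Cdh5, which encodes VE-cadherin, had 1198 ± 65.9 CPM in injured and 1408 ± 167 CPM in naive lungs (log2 fold change -0.23 ± 0.11, adjusted p = 0.337).

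**Figure D4:**
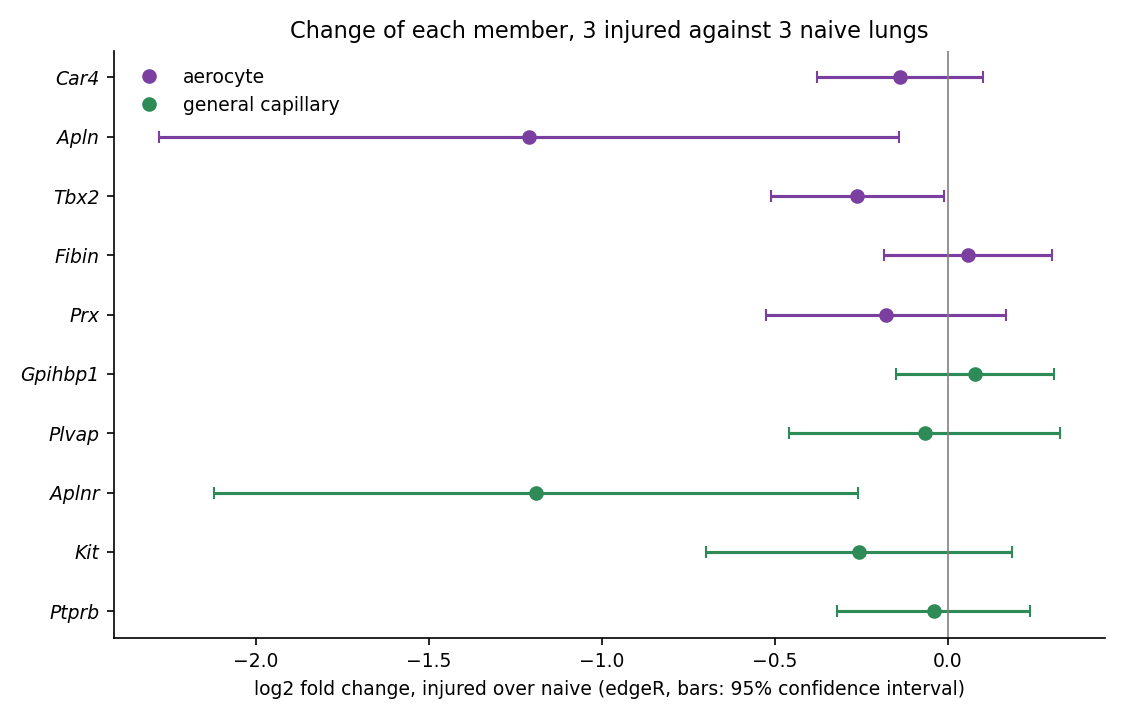
Log2 fold change of each member, injured over naive lungs, by edgeR with unadjusted 95% confidence intervals; violet points are aerocyte and green points general capillary genes. The 8 members other than Apln and Aplnr lie between -0.26 and 0.08, with intervals from -0.70 to 0.32.

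Outside the members, other capillary genes moved in both directions. Of 13 other listed aerocyte genes, all tested, 2 fell and 0 rose, with a median of -0.21 and 10 of the 13 below 0. Nckap5, of which no role is given here, stood at 121 ± 17.6 CPM in injured and 186 ± 10.6 CPM in naive lungs (log2 fold change -0.62 ± 0.11, adjusted p = 0.0200). Its call was lost without injured replicate 2 or naive replicate 1 or 2 (adjusted p up to 0.0588). Tspan12, a tetraspanin that promotes Norrin and Frizzled signalling in vessels, stood at 65.4 ± 2.36 CPM in injured and 84.8 ± 2.57 CPM in naive lungs (log2 fold change -0.38 ± 0.08, adjusted p = 0.0354), and its call was lost without any 1 library (adjusted p up to 0.151), with the replicate block and when scaled to pan-endothelial genes. Ednrb, the endothelin receptor that marks aerocytes, had 163.7 ± 15.6 CPM in injured and 168 ± 26.3 CPM in naive lungs. Kdr, the main receptor of vascular endothelial growth factor, had 501 ± 99.7 CPM in injured and 606 ± 51.8 CPM in naive lungs (log2 fold change -0.27 ± 0.15, adjusted p = 0.399).

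Of 16 other listed general capillary genes, 1 rose and 1 fell, with a median of -0.04; DESeq2 also called Itga1 lower. The rise was that of Lpl. Tmem100, a membrane protein downstream of BMP signalling in endothelium, fell to 409 ± 53.8 CPM in injured lungs, against 633 ± 25.6 CPM in naive lungs (log2 fold change -0.63 ± 0.11, adjusted p = 0.0161). Its call was lost without injured replicate 2 or naive replicate 2 (adjusted p up to 0.0693). Summed over each list, the other aerocyte genes stood at 5754 to 6327 CPM in injured and 6466 to 6741 CPM in naive lungs, and the other general capillary genes at 6646 to 6926 CPM in injured and 6314 to 6618 CPM in naive lungs. Neither sum overlapped between the groups, and they differed in opposite directions. The general capillary sum includes Lpl, which macrophages also make, at 480 CPM in injured and 282 CPM in naive lungs. With Lpl taken out, the general capillary sums of injured and naive lungs overlapped. Of the 16 genes in that sum, 10 had log2 fold changes below 0 and 6 above. The difference between the lists was not tested, and such sums follow their most abundant genes, some of which alveolar epithelium or fibroblasts also express.

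None of 20 pan-endothelial genes was called by edgeR, with 2 at an unadjusted p under 0.05 and a median of -0.03. Their sum was 7214 to 7995 CPM in injured and 7661 to 7966 CPM in naive lungs, and the groups overlapped. Pecam1, the endothelial adhesion molecule CD31, had 861 ± 64.1 CPM in injured and 1023 ± 43.3 CPM in naive lungs (log2 fold change -0.25 ± 0.10, adjusted p = 0.233). Calcrl, the receptor of adrenomedullin, had 1696 ± 157 CPM in injured and 1392 ± 142 CPM in naive lungs (log2 fold change 0.28 ± 0.12, adjusted p = 0.253). Injured lungs lay below naive lungs without overlap for Pecam1 and Cdh5, and above them for Calcrl. Over all genes tested, 10.6% lay below and 12.3% above in this way.

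Of 10 arterial genes 2 fell and 0 rose by edgeR, and DESeq2 also called 1 higher, the gap junction gene Gja5 (log2 fold change 0.66 ± 0.25 and adjusted p = 0.239 by edgeR). Fbln5, an elastic fibre protein that fibroblasts also make, stood at 106 ± 16.4 CPM in injured and 204.9 ± 25.0 CPM in naive lungs (log2 fold change -0.95 ± 0.13, adjusted p = 0.00649) and was called without each library in turn. Cdh13, a cadherin that binds adiponectin, had a log2 fold change of -0.57 ± 0.11 (adjusted p = 0.0245), and lost its call without injured replicate 2 or 3 or naive replicate 1 (adjusted p up to 0.0836). Of 10 venous genes 1 rose and 0 fell by edgeR (2 higher by DESeq2, with the chemokine receptor Ackr1), Selp, the P-selectin of activated vessels and platelets, which stood at 5.30 ± 0.715 CPM in injured and 2.52 ± 0.533 CPM in naive lungs (log2 fold change 1.08 ± 0.24, adjusted p = 0.0427). Its call was lost without any 1 library (adjusted p up to 0.138) and with the replicate block. None of 8 lymphatic genes was called by edgeR, with 4 at an unadjusted p under 0.05. Lyve1, a hyaluronan receptor, had a log2 fold change of -0.76 ± 0.20 (edgeR adjusted p = 0.0973) and Pdpn, podoplanin, one of 0.45 ± 0.10 (edgeR adjusted p = 0.0511). Pdpn is also on the alveolar type 1 list, and the cells behind these values were not tested. By DESeq2 and with scaling to pan-endothelial genes, Lyve1 was called lower and Pdpn and Reln higher.

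Of 9 genes of inflamed endothelium, which other cells also express, 2 rose and 0 fell by edgeR (4 higher by DESeq2, with Ackr1 and Lrg1), Selp and Socs3, a feedback inhibitor of cytokine signalling. Socs3 had a log2 fold change of 1.34 ± 0.19 (adjusted p = 0.0105), which passed 0.05 when naive replicate 2 or 3 was left out (adjusted p at most 0.0618). Of 13 genes of cell division and sprouting, 0 rose and 1 fell by edgeR. The median was 0.50, with 9 of the 13 above 0 and 5 at an unadjusted p under 0.05. Birc5 (log2 fold change 1.13 ± 0.38, edgeR adjusted p = 0.172) was called higher with the replicate block (adjusted p = 0.0383). Angpt2, also on this list, was called lower in the alternatives given above. The fall was that of Nid2, a basement membrane protein (log2 fold change -0.62 ± 0.12, adjusted p = 0.0221), whose call was lost without injured replicate 1 or 3 or naive replicate 2 (adjusted p up to 0.0922).

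**Figure D5:**
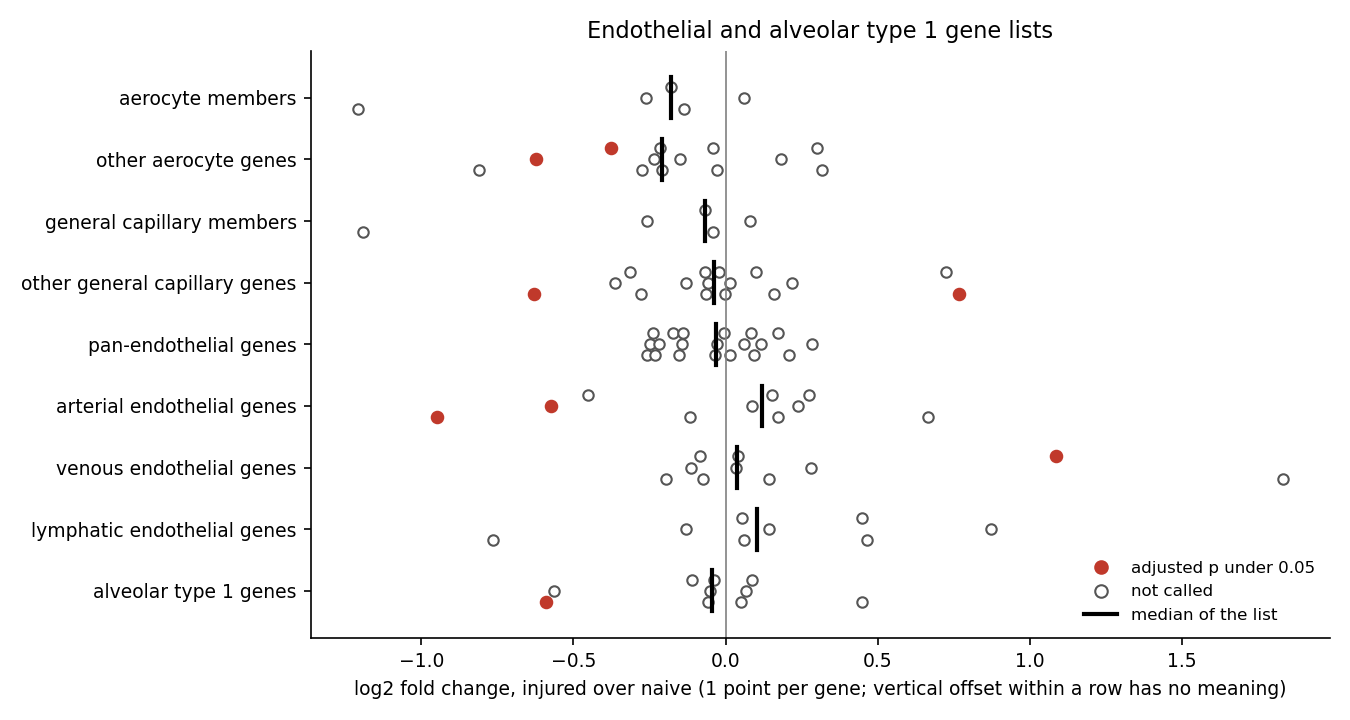
Log2 fold change of every tested gene in 9 lists, injured over naive lungs; filled red points have an adjusted p under 0.05 and black bars are list medians. The members of both capillary types lie close to 0 except for Apln and Aplnr near -1.2, and the pan-endothelial genes lie between -0.26 and 0.28 with none called.

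Genes of cells near the capillaries were counted in the same way. Of 10 alveolar type 1 genes 0 rose and 1 fell by edgeR, Col4a3, a chain of the alveolar basement membrane (log2 fold change -0.59 ± 0.11, adjusted p = 0.0228), which lost its call without injured replicate 1 or 2 (adjusted p up to 0.0828). DESeq2 called 1 of them higher, Pdpn, and 2 lower, the other being Vegfa (log2 fold change -0.57 ± 0.19 and adjusted p = 0.182 by edgeR). Pdpn was also called with library size alone, with no filter and when scaled to pan-endothelial genes, and Vegfa with the replicate block and without injured replicate 1. None of 10 alveolar type 2 genes was called by edgeR, with 3 at an unadjusted p under 0.05 and Sftpc at -0.14 ± 0.11 and Sftpb at 0.22 ± 0.11; DESeq2 called Sftpa1 higher. Of 12 mesenchymal genes, whose cells can also express Tbx2 and Fibin, 0 rose and 2 fell, Npnt and Col14a1. Npnt, an integrin ligand of the alveolar wall, had a log2 fold change of -0.83 ± 0.16 (adjusted p = 0.0253) and Col14a1, a fibril-associated collagen, one of -0.60 ± 0.13 (adjusted p = 0.0399). Npnt lost its call without injured replicate 1, 2 or 3 or naive replicate 2 (adjusted p up to 0.119), and Col14a1 by limma-voom and without any 1 library except naive replicate 1 (adjusted p up to 0.159). The mesenchymal list summed to 3067 to 4291 CPM in injured and 3260 to 5495 CPM in naive lungs, and its part in the values of Tbx2 and Fibin was not tested. None of 8 tested Schwann cell genes, out of 9 listed, was called by edgeR, with 1 at an unadjusted p under 0.05. That was Pmp22, which lung epithelium and fibroblasts also express, with a log2 fold change of -0.43 ± 0.12 (adjusted p = 0.0975, and called by DESeq2), and Mbp was at 0.09 ± 0.09. The Schwann cell list summed to 517 to 624 CPM in injured and 667 to 787 CPM in naive lungs, mostly Pmp22. Of the heart muscle genes Myh6 and Actc1 had log2 fold changes of -0.72 ± 0.71 and -1.04 ± 0.39, with edgeR adjusted p = 0.703 and 0.272. Without injured replicate 3, the omission under which Aplnr was called, edgeR also called Actc1 lower (log2 fold change -1.52, adjusted p = 0.0116). Other listed genes gained a call under the same omission. Acta2 of the mesenchymal list (log2 fold change -0.72, edgeR adjusted p = 0.00877) and Lyve1 were called lower, and Reln, Csf3r and Lrg1 higher. The neutrophil rises were led by Ly6g (log2 fold change 4.91 ± 0.61, adjusted p = 0.00518), S100a8 (4.34 ± 0.54, adjusted p = 0.0243) and S100a9 (4.25 ± 0.40, adjusted p = 0.00788). S100a8 lost its call without injured replicate 1 or 2 or naive replicate 1 or 3 (adjusted p at most 0.107) and with the replicate block, and S100a9 without naive replicate 3 (adjusted p = 0.0554).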

How the data were processed

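The authors deposited 1 table of 23194 genes. Per the file headers, each library has a read count, a normalized count and an FPKM value for every gene. The authors' own comparison is given as a log2 fold change, a p-value and its adjusted form. Per the submitters' processing notes the build was mm10 and the tools included edgeR, DESeq2, HTSeq, STAR-Fusion and STAR, whose versions and strand settings the sources used here do not give. The authors' normalized counts, a signal scaled per library, equalled counts over 1 factor per library, and the deposited FPKM was recovered from counts, lengths and column totals, both within a relative tolerance of 1e-06.

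Counts were filtered by edgeR's filterByExpr, scaled by TMM and compared by edgeR's robust quasi-likelihood F test with group as the only term (edgeR 4.0.16, limma 3.58.1, DESeq2 1.42.0, R 4.3.3). Tests were two-sided with Benjamini-Hochberg adjustment over all 15486 genes tested. The code was tested on simulated data. CPM uses the TMM-scaled library size, and confidence intervals are unadjusted. Members and lists were chosen with earlier results of these data known; lists are given as counts and medians. Named are all members, a few fixed genes and, per list, up to 3 called genes with the largest change in the commoner direction (mean of at least 1 CPM) and 1 in the opposite direction, or the 2 most abundant where none was called. Alternatives were other scalings (DESeq2 size factors, library size, pan-endothelial counts, omission of the 20 most abundant and haemoglobin genes), other filters, DESeq2, limma-voom, a replicate block and each library left out.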

Additional observations from a re-analysis of the deposited data

How the results depend on the processing

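Apart from Aplnr, which was called without injured replicate 3, no member was called under any of the 15 alternatives run, so the number of members called lower ranged from 0 to 1 with a library left out and was 0 otherwise. Leaving out a library turned the sign of the log2 fold change of Fibin (-0.0289 to 0.17), the log2 fold change of Prx (-0.28 to 0.0323), the log2 fold change of Plvap (-0.25 to 0.0907), the log2 fold change of Ptprb (-0.12 to 0.0503) and the log2 fold change of Ednrb (-0.1604 to 0.0637). The cause was not tested. The number of genes called higher in injured lungs was 578 by DESeq2, and that of genes called lower in injured lungs was 398 by DESeq2 and 269 with no filter on low counts. With a library left out the calls ran from 145 to 333 higher and from 48 to 146 lower, fewer samples being tested. Of 19 named genes outside the members that were called, 2 (Fbln5 and Ly6g) kept their call without each library in turn. Same-numbered lungs showed weak correlations of their deviations (0.09, -0.08 and 0.18 for numbers 1 to 3), and injured replicate 2 correlated best with naive replicate 1. With 3 lungs per group these values cannot exclude a pairing, and the labels state none. With the replicate block 413 genes were called higher and 208 lower, and 0 members. No scaling moved the median of all genes by more than 0.029 on the log2 scale. Depth does not limit the members; the spread of 3 lungs per group does.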
